A study of Mus musculus with 4 samples.

Results

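The genes of the lymphotoxin and NF-kB pathway were followed across 4 subsets of mouse spleen dendritic cells (DCs), each measured on 1 Affymetrix Mouse Genome 430 2.0 array. The 10 genes were chosen by name: Ltb, Lta, Ltbr, Map3k14, Traf3, Relb, Nfkb2, Nfkb1, Rel and Rela. Through the platform annotation 8 of them have probe sets, 10 in all, and 7 of the 8 lay above a floor for low signal, out of 12653 such genes among 18193 named on the array. Expression of Traf3 and Nfkb1 was not analysed here. All cells came from C57BL/6 mice in which green fluorescent protein replaces 1 copy of Cx3cr1 (Cx3cr1gfp/+), were selected for high CD11c, and carry a minus for BMP4 treatment. The subsets, named by sample title, were CD8+CX3CR1+, CD8+CX3CR1-, CD4+ and DN DCs, DN being the field's usual term for cells with neither CD4 nor CD8. The sources used here do not state animal age, sex, sorting gates or any pooling of mice.

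Lymphotoxin is a cytokine of the tumour necrosis factor family, made by lymphocytes and other leukocytes as a membrane complex of the products of Lta and Ltb. Its receptor, encoded by Ltbr, releases the kinase NIK (Map3k14) from degradation directed by TRAF3. NIK then drives processing of the Nfkb2 precursor protein, whose short form pairs with RelB, in the branch known as non-canonical. The canonical branch acts through RelA and c-Rel, usually with the product of Nfkb1. In the spleen, lymphotoxin receptor signalling and RelB are known to support DCs that lack CD8.

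With 1 array per subset there was no replicate and no test, and every difference describes a pair of arrays. A difference was called at 4-fold, a log2 difference of 2, and 2-fold differences were counted as well. The unit is linear MAS5 signal, comparable between arrays for 1 probe set but not between genes, and signal up to the floor of 55.5 was read as not above background. The CD4+ array had the highest ratio of 3' to 5' Gapdh control signal, 11.8 against 7.56 to 8.98 on the others, a ratio that rises as RNA degrades. The same ratio for actin was 2.32 on the CD8+CX3CR1+, 1.79 on the CD8+CX3CR1-, 2.86 on the CD4+ and 2.23 on the DN array. The CD8+CX3CR1- and DN arrays carry a second label naming another subset (CD8+CX3CR1+ and CD4+), and their titles were used. Cd8a signal was 2530 in CD8+CX3CR1+ and 4742 in CD8+CX3CR1- DCs, with 18.7 in CD4+ and 130 in DN DCs. Cx3cr1 signal was 894 in CD8+CX3CR1+ and 97.3 in CD8+CX3CR1- DCs, with 275 in CD4+ and 258 in DN DCs. Cd4 was highest on the CD4+ array at 564, and the DC genes Itgax, Flt3, Zbtb46, H2-Ab1 and Cd74 lay above the floor on all 4 arrays.

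The ligand gene Ltb and the transcription factor gene Relb stood apart, both lowest on the CD8+CX3CR1- array. Ltb signal was 2146 in CD8+CX3CR1+ DCs, 103 in CD8+CX3CR1-, 1568 in CD4+ and 1112 in DN DCs. Relb signal was 2265, 631, 3119 and 1782 in the same order. The other 5 genes above the floor, Ltbr, Map3k14, Nfkb2, Rel and Rela, differed by less than 2-fold between any of the arrays at their brightest probe set. As bulk profiles, these values cannot tell fewer cells that express a gene from less RNA per cell.

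**Figure D1:**
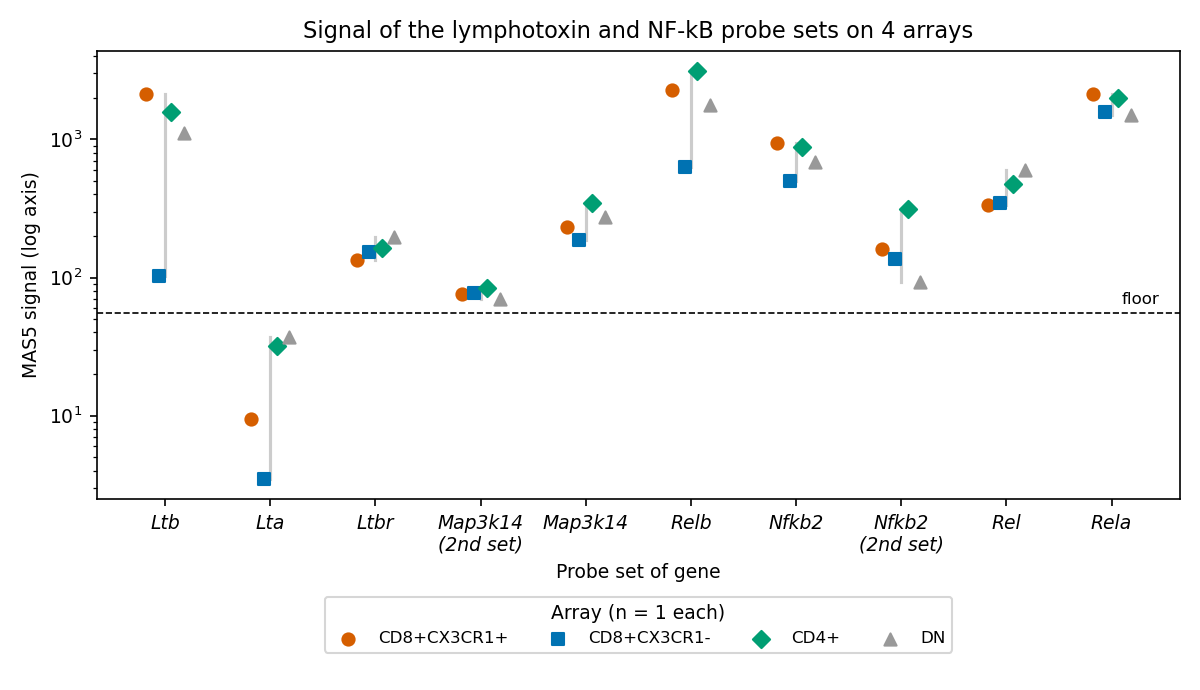
MAS5 signal (log axis) of each of the 10 probe sets of the family on the 4 arrays, 1 point per array, joined by a grey line from lowest to highest, with the floor of 55.5 dashed; "2nd set" marks the dimmer probe set of a gene that has more than 1. Ltb on the CD8+CX3CR1- array (103) lies far below its other points (1112 to 2146), and Lta lies under the floor throughout.

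Ltb encodes the membrane-anchoring chain of lymphotoxin. Against CD8+CX3CR1- DCs, Ltb signal was 20.8-fold higher in CD8+CX3CR1+ DCs, a log2 difference of 4.38. It was 15.2-fold higher in CD4+ and 10.8-fold higher in DN DCs. These 3 comparisons share the CD8+CX3CR1- array and are not independent of each other. By absolute log2 difference, Ltb ranked 22 of 12653 genes between the CD8+ subsets, 48 between CD8+CX3CR1- and CD4+, and 46 between CD8+CX3CR1- and DN. The signal of 103 was above the background of its own array, where 90% of probe sets for chemosensory receptors and keratin-associated proteins lay under 62.5. Among the other 3 arrays Ltb varied by 1.93-fold, highest on the CD8+CX3CR1+ array and lowest on the DN array. Ltb has 1 probe set, so its differences could not be checked against another.

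The bases around the RefSeq start of Ltb are shown because this gene had the largest differences of the family and because its window holds a match to the kappaB consensus, the motif bound by NF-kB dimers. The window runs from 250 bases before to 50 after the start, at chr17:35194257-35194556 of GRCm38.p6, plus strand. It is written 5′ to 3′ with the match in capitals.
Ltb: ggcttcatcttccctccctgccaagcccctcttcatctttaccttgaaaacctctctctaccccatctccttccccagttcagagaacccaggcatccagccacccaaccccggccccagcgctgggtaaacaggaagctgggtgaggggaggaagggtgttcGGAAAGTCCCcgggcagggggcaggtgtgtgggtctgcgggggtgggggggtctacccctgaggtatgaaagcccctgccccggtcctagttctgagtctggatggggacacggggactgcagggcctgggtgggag
The match lies at positions -87 to -78 from the start and reads GGGACTTTCC on the opposite strand. Of all 32851 RefSeq windows of this length, 8.46% held a match to the consensus on either strand, as did 6 of the 10 family windows. By gene, these belong to 4 of the 8 family genes in the table (Ltb, Traf3, Nfkb2 and Rel). Nfkb2 has 3 windows, some of them overlapping. A match describes the letters of the window. Binding was not measured.

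Lymphocytes express Ltb, so markers of other spleen cells were read on the same arrays. Signals of the 6 B cell genes on the array summed to 1019 on the CD8+CX3CR1+, 564 on the CD8+CX3CR1-, 883 on the CD4+ and 519 on the DN array. In the same order, 2, 2, 4 and 3 of these genes lay above the floor. The sums add signals of unlike genes, so their order was not read either. One of the B cell genes, Cd79b, which encodes a chain of the B cell receptor complex, was ordered like Ltb, at 593, 3.1, 402 and 178. Ms4a1, which encodes CD20, went otherwise, at 361, 446, 202 and 163, and Cr2 lay above the floor in CD8+CX3CR1- DCs alone, at 66.0. Blk was 9.0, 2.5, 143 and 115 and Pax5 was 47.1, 43.4, 97.1 and 13.0, both under the floor on the CD8+ arrays. Cd79a, the partner chain of Cd79b, lay under the floor on every array, at 36.6 or less. The 6 T cell genes summed to 288, 116, 235 and 282 in the same order. Of them 3, 0, 1 and 3 lay above the floor, so no order of these sums was read. Cd3g and Cd28 were under the floor throughout. The 4 NK cell genes summed to 230, 181, 114 and 236, with 2, 1, 0 and 2 of them above the floor. Ncr1 was under the floor throughout. The part of such cells in the Ltb values was not tested.

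Lta encodes the partner chain of lymphotoxin. Its signal was 9.5 in CD8+CX3CR1+ DCs, 3.5 in CD8+CX3CR1-, 32.1 in CD4+ and 36.8 in DN DCs. Every value lay under the floor, so no order or fold can be read. Ltbr, the receptor gene, had signals of 133, 153, 163 and 197 in the same order of arrays. Its widest gap was 1.47-fold, between the DN and CD8+CX3CR1+ arrays. The order of CD4+ against either CD8+ subset for Ltbr could not be told, since it turned when arrays were scaled to an equal median.

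Map3k14 encodes NIK, the kinase of the non-canonical branch. Its brighter probe set gave 234 in CD8+CX3CR1+ DCs, 186 in CD8+CX3CR1-, 344 in CD4+ and 275 in DN DCs. The CD4+ value was 1.85-fold above the CD8+CX3CR1- value, the widest gap for this gene. Its dimmer probe set, close to the floor, spanned only 69.7 to 84.3, and put the lowest signal on the DN array.

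Relb encodes RelB, the DNA-binding partner of processed Nfkb2 protein and a factor known to be needed for some spleen DCs. Against the CD8+CX3CR1- array, Relb was 4.94-fold higher on the CD4+ array, the one Relb difference past 4-fold. It was 3.59-fold higher in CD8+CX3CR1+ and 2.82-fold higher in DN DCs. With arrays scaled to an equal median, the log2 difference between the CD8+CX3CR1- and CD4+ arrays was -1.96 in place of -2.31, just short of 4-fold. Among the other 3 arrays Relb varied by 1.75-fold, with the CD4+ array highest. The array with the highest Relb was thus also the one with the highest Gapdh ratio. The CD8+CX3CR1- and DN arrays, with Gapdh ratios of 8.33 and 7.56 and actin ratios of 1.79 and 2.23, also differed in Relb. The part of RNA quality in these values was not tested.

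Nfkb2 encodes the precursor that NIK signalling has cut to its active form. Its brighter probe set gave 942 in CD8+CX3CR1+ DCs, 502 in CD8+CX3CR1-, 880 in CD4+ and 681 in DN DCs. The CD8+CX3CR1- array was lowest, 1.88-fold below the CD8+CX3CR1+ array. The dimmer probe set, of a type (_x) that can bind other transcripts, gave 162, 136, 312 and 93.4 in the same order and put the DN array lowest. With both averaged, the log2 difference between the CD8+CX3CR1- and DN arrays turned from -0.44 to 0.05. Nfkb2 was therefore lower on the CD8+CX3CR1- than on the CD8+CX3CR1+ array and the CD4+ array at both probe sets. The order of CD8+CX3CR1- against DN depended on the probe set. So did that of CD8+CX3CR1+ against CD4+, with log2 differences of 0.10 at the brighter and -0.94 at the dimmer probe set.

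Rel and Rela, which encode the canonical factors c-Rel and RelA, did not share the low value of Relb. Rel signal was 332 in CD8+CX3CR1+ DCs, 346 in CD8+CX3CR1-, 479 in CD4+ and 600 in DN DCs. The CD8+ arrays were within 1.04-fold of each other, and the DN array was 1.81-fold above the CD8+CX3CR1+ array. Rela signal was 2123, 1585, 1997 and 1505 in the same order. The widest Rela gap was 1.41-fold, between the CD8+CX3CR1+ and DN arrays, and the CD8+CX3CR1- and DN arrays were within 1.05-fold.

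The start windows of Nfkb2 and Rel are shown because both hold kappaB matches like that of Ltb. At its brighter probe set alone, Nfkb2 was lowest on the CD8+CX3CR1- array like Ltb, over a narrower range, while Rel was highest in DN DCs. Both are 5′ to 3′ with the matched bases in capitals, from RefSeq on GRCm38.p6. Nfkb2 is the first of its 3 listed starts, on the plus strand at chr19:46304487-46304786, and Rel is on the minus strand at chr11:23770920-23771219.
Nfkb2: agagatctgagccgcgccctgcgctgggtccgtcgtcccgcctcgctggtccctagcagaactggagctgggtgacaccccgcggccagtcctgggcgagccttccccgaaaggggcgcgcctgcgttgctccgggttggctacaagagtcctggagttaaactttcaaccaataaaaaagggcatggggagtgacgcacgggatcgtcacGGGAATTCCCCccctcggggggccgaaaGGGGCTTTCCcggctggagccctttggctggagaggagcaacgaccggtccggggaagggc
Rel: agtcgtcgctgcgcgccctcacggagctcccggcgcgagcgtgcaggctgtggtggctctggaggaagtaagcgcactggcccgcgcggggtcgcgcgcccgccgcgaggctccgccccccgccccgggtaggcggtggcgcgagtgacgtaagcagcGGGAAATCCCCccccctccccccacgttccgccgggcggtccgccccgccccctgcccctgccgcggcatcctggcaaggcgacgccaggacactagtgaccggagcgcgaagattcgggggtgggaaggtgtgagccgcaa
In Nfkb2 the matches, some of them overlapping or on both strands, lie at positions -39 to -29 and -11 to -2. In Rel they lie at -92 to -82. The CD8+CX3CR1- array was 10.8-fold below the lowest other array for Ltb and 1.36-fold below it for Nfkb2, and not the lowest array for Rel. The windows of Lta, Ltbr, Map3k14 and Rela held no match, and the table of windows was not used for Relb or Nfkb1.

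Counted by comparison, 1 of the 7 genes above the floor was at least 4-fold apart between the CD8+CX3CR1+ and CD8+CX3CR1- arrays (Ltb), as were 2.82% of all 12653 genes. At 2-fold it was 2 of 7, Ltb and Relb, against 13.5%. Between CD8+CX3CR1- and CD4+, Ltb and Relb passed 4-fold (2.97% of all genes), and the same pair were the ones past 2-fold (15.9%). Between CD8+CX3CR1- and DN, Ltb passed 4-fold (2.02% of all genes), and Ltb and Relb passed 2-fold (11.0%). From 2 of 7 genes nothing particular to the family was read against these shares.

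In the comparisons without the CD8+CX3CR1- array, 0 of the 7 genes were 2-fold apart at their brightest probe set. The share of all genes past 4-fold and past 2-fold was 0.767% and 9.38% between CD8+CX3CR1+ and CD4+, 0.411% and 5.90% between CD8+CX3CR1+ and DN, and 0.253% and 7.57% between CD4+ and DN. At these probe sets the widest family difference was Ltb between CD8+CX3CR1+ and DN, at 1.93-fold. The dimmer Nfkb2 probe set was 3.34-fold higher in CD4+ than in DN DCs, and with both sets averaged the log2 difference of Nfkb2 in this pair was 1.05.

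Ltb and Relb were each at least 2-fold below all of the other arrays on the CD8+CX3CR1- array, as were 403 of all genes (3.19%). None of the 7 was at least 2-fold above all other arrays there, against 2.42% of all genes. By the gap to the lowest other array, Ltb ranked 19 and Relb 180 of 12653. The CD8+CX3CR1- array gave the lowest signal for 4 of the 7 genes (Ltb, Map3k14, Relb and Nfkb2), compared with 30.2% of all genes. Averaging probe sets left 3 of 7. Here and below, the lowest or highest array was taken from signals before they were raised to the floor. For scale, probe sets of the same gene spread in their log2 differences by 0.42 to 0.55 (root mean square of the standard deviation over genes) in the 6 comparisons, a probe error that leaves out the spread between mice or sorts. The 6 differences of Ltb and Relb from the CD8+CX3CR1- array were each larger than this. Of the 15 differences of the other 5 genes from that array, 5 were larger and 10 smaller.

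**Figure D2:**
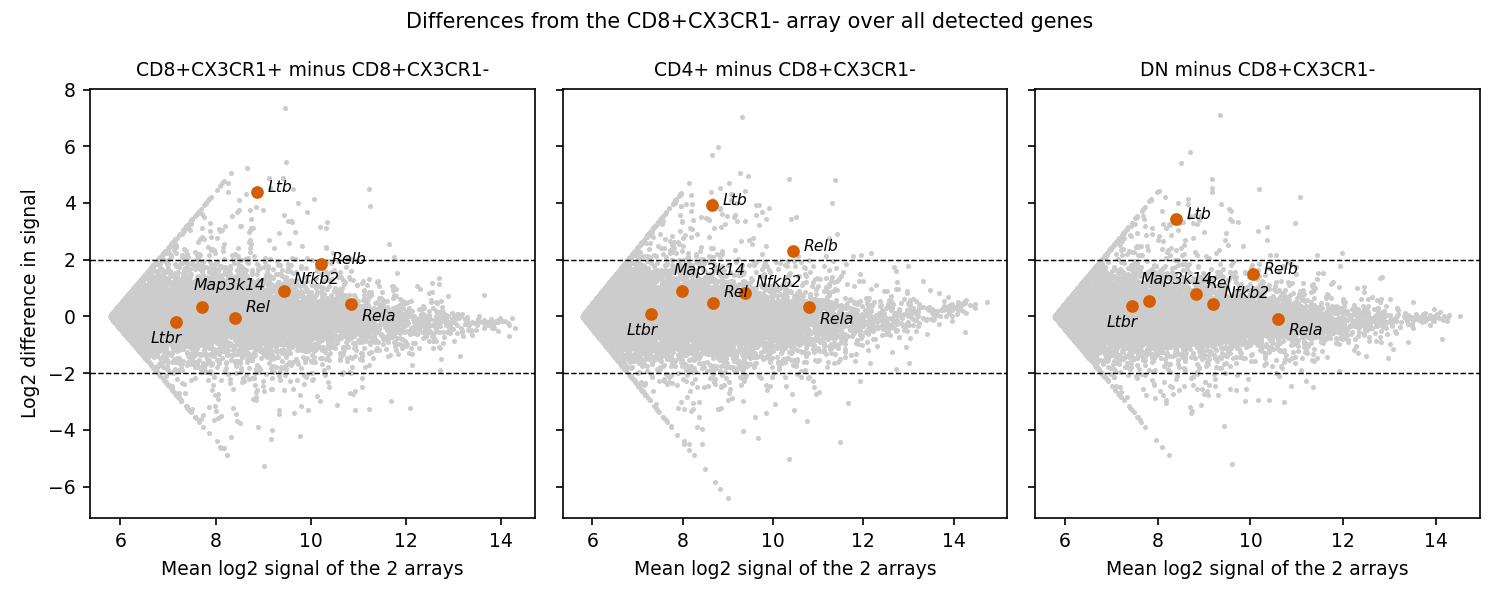
Log2 difference in signal of each of the other arrays from the CD8+CX3CR1- array, plotted against the mean log2 signal of the pair, for 12653 genes above the floor (grey) with the 7 family genes in orange; dashed lines mark 4-fold. Ltb lies above the upper line in all 3 panels, Relb in the CD4+ panel alone, and the other family genes lie within the grey band.

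The wider pathway was read from a list of 40 genes in 4 groups, of which 38 have a named probe set and 35 lay above the floor. On the CD8+CX3CR1- array 22 of these 35 had their lowest signal, against 30.2% of all genes, and 21 of 35 against 23.2% with arrays scaled to an equal median. It was 20 of 35 against 28.1% with quantile normalization and 17 of 31 against 30.1% with probe sets averaged. Some gaps were small, as for Traf6, at 101 there and 107 on the CD8+CX3CR1+ array. Comparing CD8+CX3CR1+ with CD8+CX3CR1-, the median log2 difference was 0.44 over 8 adaptors and kinases and 0.42 over 10 inhibitors and feedback genes. It was -0.08 over 8 ligands and receptors and -0.82 over 9 target genes. The value for target genes is that of Vcam1 at its brightest probe set, and another Vcam1 probe set gave 0.07. The median over all genes was 0.

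Among adaptors and kinases, 7 of 8 were lowest on the CD8+CX3CR1- array (30.2% of all genes), and 6 of 8 with quantile normalization or probe sets averaged. Map3k7, which encodes the kinase TAK1 of the canonical branch, was 271 in CD8+CX3CR1+ DCs, 95.3 in CD8+CX3CR1-, 212 in CD4+ and 250 in DN DCs. Birc2, a ubiquitin ligase that acts with TRAF2 and TRAF3 on NIK, was 717, 417, 989 and 833 in the same order. Traf2 itself was 604, 430, 1009 and 594. The kinase gene Ikbkb had a narrower range at its brightest probe set, from 1864 on the CD8+CX3CR1- array to 3182 on the CD4+ array. Of these genes, Map3k7 alone was 2-fold below every other array, and it was no longer so with an equal median or with probe sets averaged. The low Map3k7 value rests on its brightest probe set. At the other 2, the log2 difference of CD8+CX3CR1+ from CD8+CX3CR1- was -0.30 and -0.002, against 1.51 at the brightest. That of CD8+CX3CR1- from CD4+ was 0.18 and 1.06, against -1.15, and from DN -0.08 and 0.05, against -1.39.

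Of the inhibitors and feedback genes, 8 of 10 were lowest on the CD8+CX3CR1- array, against the same 30.2%. The count was 7 of 10 with quantile or equal-median scaling and 6 of 9 with probe sets averaged. Bcl3, an unusual IkB protein that acts in the nucleus with NF-kB dimers, was the list gene with the widest range. Its signal was 1265 in CD8+CX3CR1+ DCs, 146 in CD8+CX3CR1-, 675 in CD4+ and 656 in DN DCs. Like Ltb, Bcl3 passed 4-fold in each comparison with the CD8+CX3CR1- array, at 8.66-fold, 4.62-fold and 4.49-fold. With arrays scaled to an equal median, the difference from CD4+ was 3.63-fold, short of the threshold. Nfkbie, which encodes the inhibitor IkB epsilon, was 1157, 574, 1683 and 1889 in the same order. Nfkbia, the main feedback inhibitor, ranged at its brightest probe set from 6186 on the CD8+CX3CR1- array to 9396 on the CD4+ array. Its other 4 probe sets instead put CD8+CX3CR1+ above CD4+, by log2 differences of 0.51 to 1.05. Their differences of CD8+CX3CR1- from CD4+ ran from -0.40 to 0.05. Tnfaip3, which encodes the deubiquitinase A20, ranged from 1135 on the CD8+CX3CR1- array to 1969 on the CD8+CX3CR1+ array. Nfkbib went the other way, highest on the CD8+CX3CR1- array at 568 and lowest on the CD4+ array at 260.

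Ligand and receptor genes were split, with 4 of 8 lowest on the CD8+CX3CR1- array (30.2% of all genes), and 2 of 6 with probe sets averaged. The 4 include Tnfsf14, which was under the floor on both CD8+ arrays, so its lowest array cannot be told. Cd40, a receptor that also feeds the non-canonical branch, was 885 in CD8+CX3CR1+ DCs, 475 in CD8+CX3CR1-, 1162 in CD4+ and 787 in DN DCs. This is its brightest probe set, where CD8+CX3CR1+ minus CD8+CX3CR1- was 0.90 (log2). The other 2 Cd40 probe sets gave -0.93 and 0.71, so its order over the CD8+ arrays depended on the probe set. Tnfsf14, which encodes LIGHT, the further ligand of the lymphotoxin receptor, lay above the floor in CD4+ (107) and DN DCs (67.3), with 20.6 and 4.7 in CD8+CX3CR1+ and CD8+CX3CR1- DCs. Tnfrsf1a, a receptor for tumour necrosis factor, was lowest on the CD4+ array at 544 and highest on the DN array at 880.

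Of the 9 reported target genes of NF-kB, 0 were at least 2-fold below every other array on the CD8+CX3CR1- array, as Ltb and Relb were (3.19% of all genes). On that array 3 of 9 had their lowest signal (Traf1, Cflar and Ccl5), near the 30.2% of all genes. Of the 9, Vcam1, Bcl2l1, Cd83, Ccl22 and Il12b had their highest signal there, as did 26.8% of all genes. For Cd83 the gap was small, at 9599 against 8769 on the CD4+ array. Vcam1, an adhesion molecule gene, was 291 in CD8+CX3CR1+ DCs, 513 in CD8+CX3CR1-, 142 in CD4+ and 109 in DN DCs, and passed 4-fold between CD8+CX3CR1- and DN (4.70-fold). This rests on its brightest probe set, since another gave a log2 difference of 0.69 and the average over probe sets was 2.19-fold. Il12b, a chain shared by several interleukins, was 186 on the CD8+CX3CR1- array and under the floor on the others, a difference of at least 3.36-fold. The chemokine gene Ccl22 was 207 there and 47.5 to 71.6 elsewhere.

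In the whole list, Bcl3 and Vcam1 were the genes past 4-fold in any comparison. Past 2-fold, 8 of 35 differed between the CD8+ subsets (13.5% of all genes), 5 higher and 3 lower in CD8+CX3CR1+ DCs. Comparing CD8+CX3CR1- with CD4+, 14 differed (15.9% of all genes), 5 higher and 9 lower. With DN, 9 differed (11.0% of all genes), 4 higher and 5 lower. Past 2-fold, CD8+CX3CR1+ differed from CD4+ in 1 list gene (9.38% of all genes) and from DN in 1 (5.90%), and CD4+ from DN in 0 (7.57%). Bcl3 and Vcam1 were named for passing 4-fold, and the other list genes were chosen for naming after their values were seen.

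**Figure D3:**
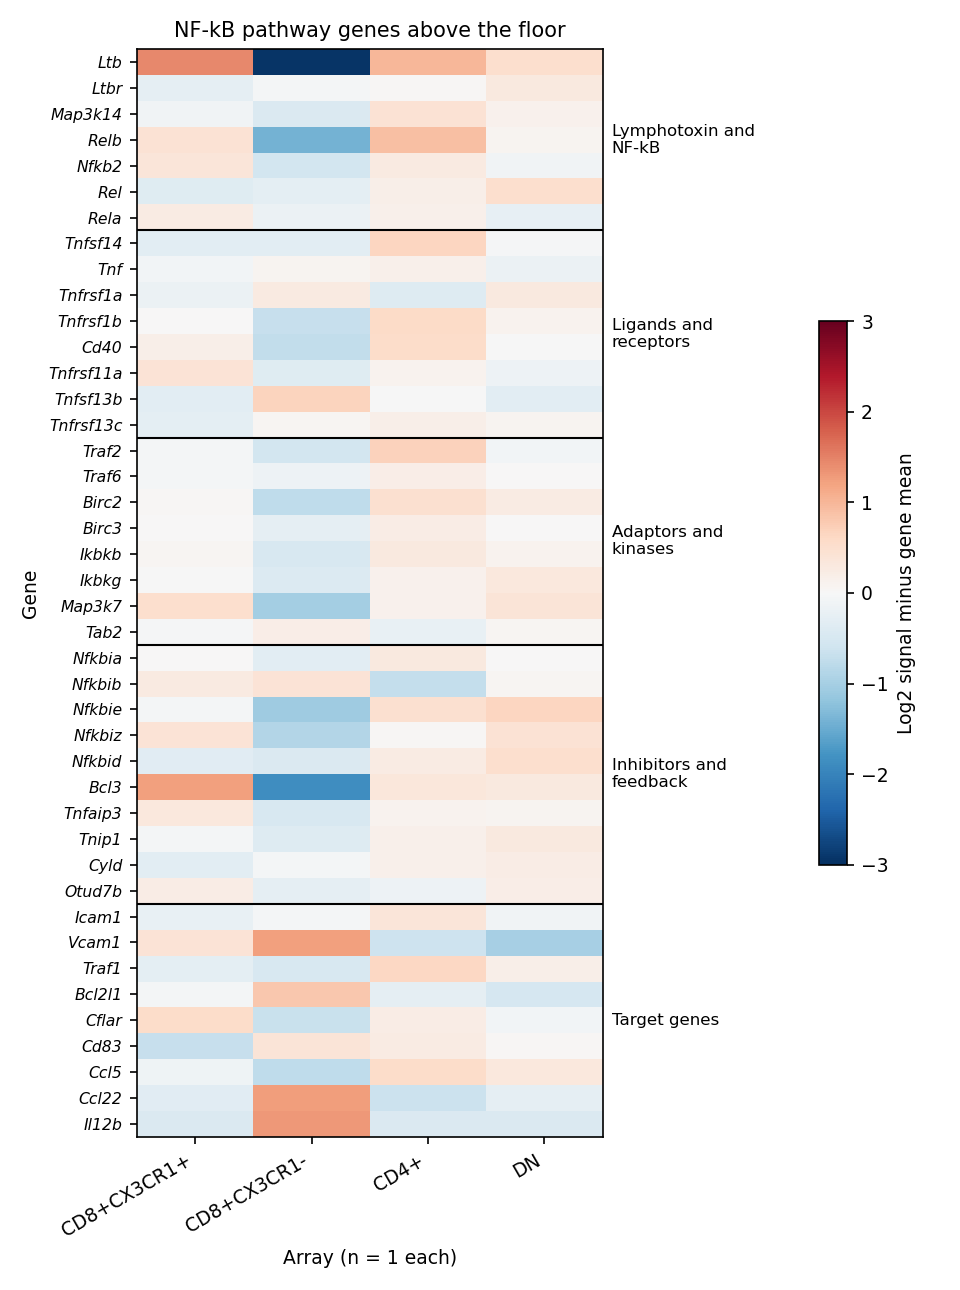
Log2 signal minus the gene's mean over the 4 arrays (colour scale), for the 7 family genes and the 35 list genes above the floor, grouped by role, with 1 column per array. The CD8+CX3CR1- column is blue for Ltb, Relb and Bcl3 and for most adaptors and inhibitors, and red for Vcam1, Ccl22 and Il12b among the target genes.

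Genes with profiles like Ltb and Relb were sought over 11913 other named genes by the root mean square distance of log2 signals, each centred on its mean over the 4 arrays. Nearest to Ltb were Tmem176a at 0.18, Ccl9, a chemokine gene, at 0.21 and Tmem176b at 0.22. Ccl9 was under the floor in CD8+CX3CR1- DCs (46.4), so its distance and place rest on a value raised to the floor. Tmem176a and Tmem176b encode related membrane proteins. Tmem176a signal was 4538 in CD8+CX3CR1+ DCs, 255 in CD8+CX3CR1-, 3604 in CD4+ and 1973 in DN DCs, in the same order of arrays as Ltb. Nearest to Relb were Ctsd at 0.06, which encodes the lysosomal protease cathepsin D, and Fcrl1 and Txnip, each at 0.08. Txnip, a regulator of redox and glucose uptake, had signals of 2568, 670, 3075 and 1790 in the same order of arrays. With 4 arrays, small distances arise among many genes, and the measure describes likeness of profile alone.

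**Figure D4:**
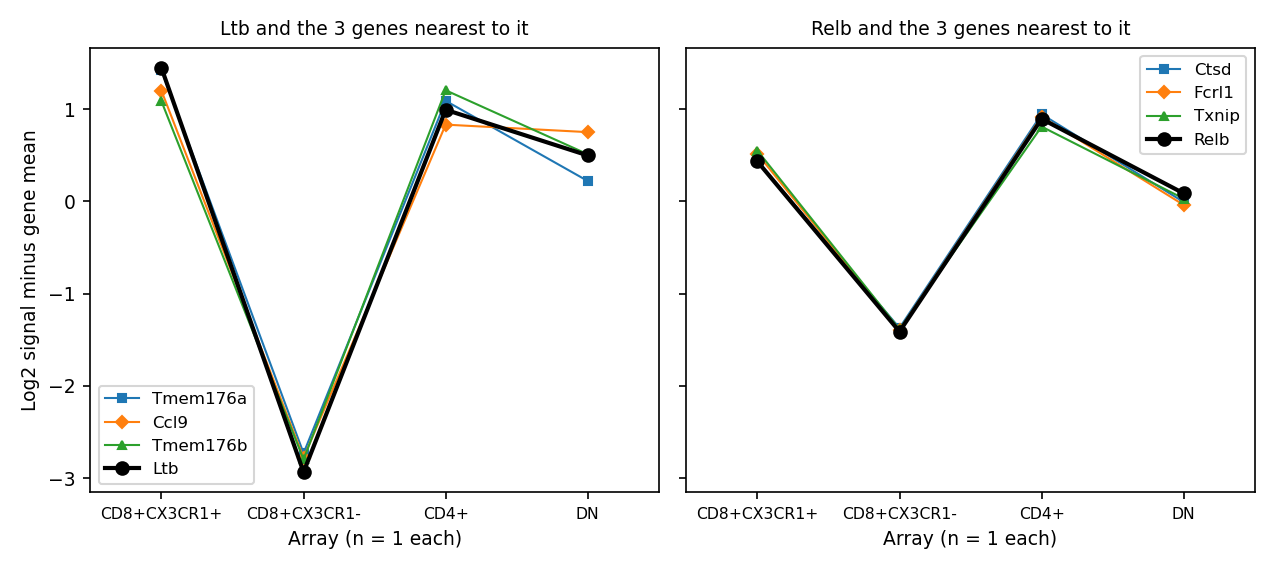
Log2 signal minus the gene's mean over the 4 arrays, for Ltb (left) and Relb (right) in black and the 3 genes nearest to each in colour, with 1 point per array. Both sets fall on the CD8+CX3CR1- array, and Ltb is highest on the CD8+CX3CR1+ array while Relb is highest on the CD4+ array.

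The array on which the CD8+CX3CR1+ cells were measured carried Ltb and Relb nearer to the CD4+ than to the CD8+CX3CR1- level on the log2 scale. The same held for 61.7% of all 2012 genes that were 2-fold apart between the CD4+ and CD8+CX3CR1- arrays, and for 9 of 14 list genes. Irf8 and Naaa, markers of CD8 DCs, were 13285 and 7460 on the CD8+CX3CR1- array, and 1409 and 772 on the CD8+CX3CR1+ array. Sirpa, a marker of CD4 DCs, was 64.1 and 731 in the same order. Other markers of these DCs were less far apart. Esam, of CD4 DCs, was 135 and 167, and Batf3, of CD8 DCs, was 2570 and 1028, with 2678 on the CD4+ array. Over 2 arrays any gene that differs must run with or against such markers, so no likeness of Ltb or Relb to them was read.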

How the data were processed

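RNA of 4 sorted DC subsets was measured on 1 array each, grouped by sample title. The deposited values are intensity (signal) per probe set, made by the authors with MAS5, per the submitters' processing notes. No version or genome build is stated in the sources used here. This method corrects for background and mismatch probes and scales each array as a whole; the mean after trimming 2% at each end was 150.0 on all 4 arrays, so a difference in total RNA per cell cannot be seen.

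Of 45101 probe sets, 34945 have 1 gene symbol, 932 several, 9160 none and 64 are controls. Only those with 1 symbol were named. The symbols of the 8 family genes were unchanged in RefSeq GRCm38.p6. A gene stood as its brightest probe set by mean log2 signal. The floor was the 90th percentile of 128 probe sets for chemosensory receptors and keratin-associated proteins, pooled over arrays. Lower signals were raised to it, and a difference with 1 array under it is a bound. Lowest and highest arrays were counted before this step, so for some genes that order lies under the floor. Family genes were all named, as were list genes past 4-fold and the 3 nearest profiles. The members, lists and rules were chosen with earlier results of these data known. The number of arrays limits the precision. The steps were tested on simulated data (Python 3.11.15, pandas 2.3.3). Alternatives were quantile and equal-median scaling, floors at the 75th and 95th percentile, no floor, averaged probe sets, no _x, _s or _a sets, and a 2-fold threshold.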

Additional observations from a re-analysis of the deposited data

How the results depend on the processing

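At 2-fold in place of 4-fold, 2 genes of the family (Ltb and Relb) were called between CD8+CX3CR1+ and CD8+CX3CR1-, and 2 between CD8+CX3CR1- and DN, in place of 1 each. With arrays scaled to an equal median, 1 was called between CD8+CX3CR1- and CD4+ in place of 2, since Relb fell short. This scaling moved the median of all genes by 0.17 (log2) between CD8+CX3CR1+ and CD4+ and by 0.15 between CD8+CX3CR1- and CD4+, where it turned 149 higher and 227 lower genes into 236 and 158. With no floor, 2 were called between CD8+CX3CR1- and DN, Lta being added at signals of 3.5 and 36.8, and 3 between CD8+CX3CR1- and CD4+. Ltb was called in all 3 comparisons with CD8+CX3CR1- under every alternative, with log2 differences of 4.33 to 4.38 from CD8+CX3CR1+. Averaging probe sets moved 3 of 42 family differences past the probe error, and 0 of the others moved that far. Differences of Ltbr, Nfkb2 and Rela under 2-fold changed sign in 6 cases. Leaving out probe sets with _x, _s or _a left out Nfkb2 and Rela. Low signals limit Lta and the dimmer Map3k14 probe set. No paired analysis was possible because each group has 1 array.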
